A study of Mus musculus with 1646 samples.

Results

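The interstitial smooth muscle cells (iSMC) of the mouse colon were described here as the cells that the sample labels put in cluster 8, which are 56 of the 1646 colon cells of the series. Of these, 40 came from plate colon_513s and 12 from plate colon_682s of the Acta2GFP line, and 4 from 3 plates of the PdgfrbGFP line. The study sequenced single mesenchymal cells from adult male mice aged 10 to 20 weeks, on 9 plates in the colon, to tell fibroblasts apart from mural cells, the contractile cells of vessel walls. Cells were sorted on a reporter or on antibody staining for PDGFRA or PDGFRB, CD31-positive cells were left out, and libraries were made by SmartSeq2, which reads whole transcripts. The names of the classes are those of the study and not of the labels: cluster 3 is called vascular SMC (141 cells), cluster 4 pericytes (142 cells), and clusters 1, 2, 5, 6 and 7 fibroblasts.

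All mice were backcrossed to C57Bl6/J and carried 1 of 4 reporters. Acta2GFP mice express GFP from a transgenic promoter of *Acta2*, a gene of all smooth muscle, and elastase was added to the digestion of their tissue. PdgfrbGFP and Cspg4dsRED mice carry transgenes that mark mural cells, the former also many fibroblasts, and PdgfraGFP mice carry a reporter at *Pdgfra*, which marks fibroblasts. No mouse is named in the labels, so the plate was the replicate, and p-values measure the spread between plate sums of cells, which may be technical. The authors drew the clusters from these same counts and kept only cells with *Pdgfra* or *Pdgfrb*, so the tests below are not independent of the classes they compare.

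As background, smooth muscle in the gut lies in the outer muscle coat, in the thin muscle layer under the mucosa, in vessel walls and as single strands that run up through the mucosa between the crypts. Its contractile genes are driven by serum response factor with its partner myocardin, which bind a sequence called the CArG box. Hedgehog ligands from the gut epithelium act on the mesenchyme through the receptor *Ptch1*, and *Hhip* encodes a membrane protein that binds those ligands and restrains the pathway, while being itself a hedgehog target gene.

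The upstream sequences of 2 genes are shown as examples of both kinds of gene described below: *Hhip*, the gene that stood furthest above all other classes in iSMC, and *Vcl* (vinculin, a linker of actin to adhesion sites), one of the contractile and cytoskeletal genes shared with vascular SMC. Each run is the 250 bases before the RefSeq start site in GRCm38.p6, 5′ to 3′ on the strand of the gene, and overlaps no annotated exon. Capitals mark a CArG box. *Hhip* lies on the minus strand (chr8:80058009-80058258, GC content 76.0%) and *Vcl* on the plus strand (chr14:20929148-20929397, GC content 67.2%).
Hhip: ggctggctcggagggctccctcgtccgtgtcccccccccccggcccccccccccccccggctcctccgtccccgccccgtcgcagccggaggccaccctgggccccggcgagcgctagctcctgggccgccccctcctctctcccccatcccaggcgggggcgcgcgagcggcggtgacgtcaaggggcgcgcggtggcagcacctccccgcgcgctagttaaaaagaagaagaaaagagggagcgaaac
Vcl: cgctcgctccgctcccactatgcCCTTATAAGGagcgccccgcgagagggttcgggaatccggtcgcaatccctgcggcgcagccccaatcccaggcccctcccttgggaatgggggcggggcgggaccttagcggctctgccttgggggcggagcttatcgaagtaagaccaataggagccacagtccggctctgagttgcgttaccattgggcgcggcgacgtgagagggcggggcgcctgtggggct

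The *Vcl* window held 1 CArG box, which began 227 bases before the start, and the *Hhip* window held none. It also held no match to the hedgehog effector motif TGGGTGGTC or its reverse complement GACCACCCA. CArG boxes occurred in 6 of 29 windows (20.7%) of 24 contractile and cytoskeletal genes and in 482 of all 32851 windows (1.47%). Of the 29 windows found for 20 of the 25 genes ranked highest in iSMC, 1 held one (3.45%; *Fhl1*), and the 6 windows of the 5 label markers held 0. *Vcl* was chosen because its window holds one, along with those of *Myl9*, *Cnn2*, *Myl6* and *Ldb3*. The hedgehog motif was found in 74 of all windows (0.225%) and in none of the 15 windows of 14 hedgehog pathway genes. CArG boxes are palindromic, so 1 strand was searched for them, and matches are a description of these letters only.

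The label markers were described first, with levels given as counts per 500000 gene counts of a cell. The study named *Hhip* and *Rgs10* from these same cells, and most iSMC came from the Acta2GFP line, so these levels are no independent check. *Hhip*, *Rgs10*, *Acta2*, *Agt* and *Postn* all had at least 1 count in 53 of the 56 iSMC, and the other 3 cells lacked 1 of them. *Hhip* and *Acta2* reached a level of 100 in 56 cells, *Postn* in 56, *Rgs10* in 51 and *Agt* in 49. Markers of the other mural classes differed: *Notch3*, a receptor of vascular mural cells, had a count in 4 cells and reached 100 in 0, and *Cspg4* (NG2) reached 100 in 2. *Higd1b* had no count in any, but it reached 100 in only 19.7% of pericytes and 4.3% of vascular SMC. *Rgs5* reached 100 in 8 iSMC, against 78.7% of vascular SMC and 92.3% of pericytes, and *Abcc9* in 5, against 3.55% and 59.2%. *Mcam*, by contrast, reached 100 in 27 iSMC (48.2%, against 87.9% of vascular SMC and 51.4% of pericytes), *Des* in 25, *Pdgfrb* in 19 and the potassium channel gene *Kcnj8* in 12 (21.4%, against 8.51% of vascular SMC and 55.6% of pericytes). The fibroblast marker *Pdgfra* reached 100 in 1 cell, although 43 of 56 had a count of it, and *Cd34* did in 5. *Dcn* (decorin) reached 100 in 34 iSMC (60.7%), in every cell of clusters 1, 5 and 7, and in 34.4% of cluster 2, 86.7% of cluster 6, 28.4% of vascular SMC and 75.4% of pericytes. *Kit*, which marks interstitial cells of Cajal, had a count in 1 cell.

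Single cells varied widely around these averages. On plate colon_513s, *Hhip* ran from 222 to 3311 with a median of 1356, and on plate colon_682s from 152 to 1540 with a median of 1146. *Rgs10*, a regulator that switches off G protein signalling, ran from 87.1 to 1002 (median 524) and from 4.42 to 608 (median 375). *Agt*, which encodes angiotensinogen, had a lowest value of 18.4 on colon_513s and of 0 on colon_682s, with medians of 519 and 488. *Acta2* ran from 2784 to 8435 (median 5777) and from 1968 to 6242 (median 2957). The cells of both plates overlapped for each of these 4 genes.

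**Figure D1:**
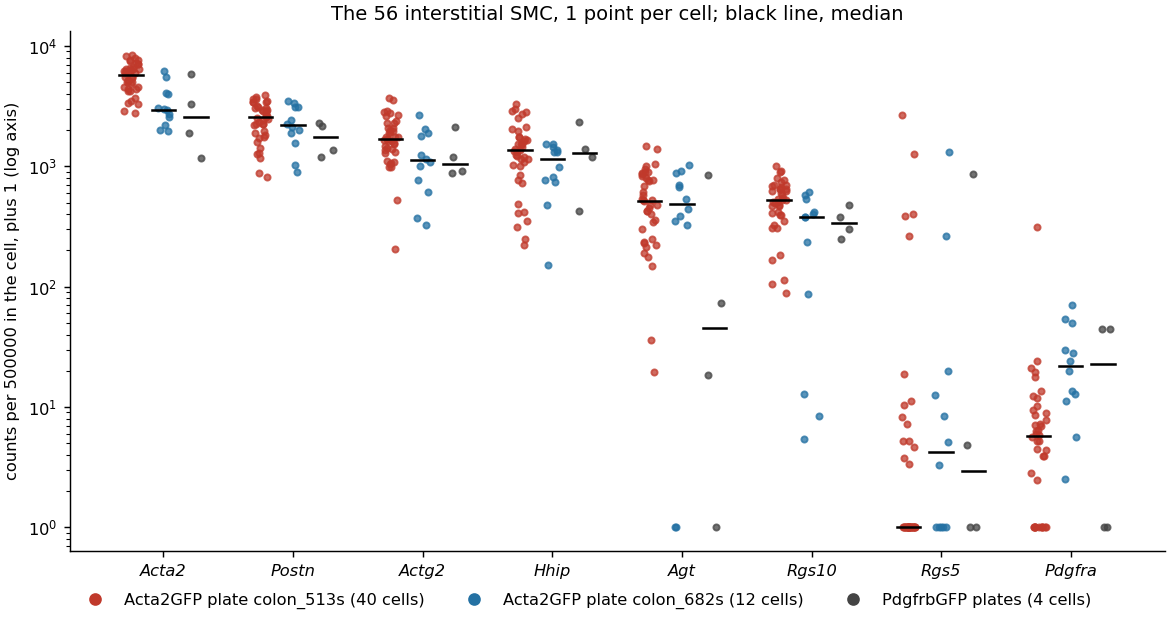
Level of 8 genes in each of the 56 iSMC on a log axis (counts per 500000 in the cell, 1 added); 1 point per cell, coloured by plate group, with a black line at the median. *Acta2*, *Postn*, *Actg2* and *Hhip* were high in every cell, *Agt* and *Rgs10* in most, and *Rgs5* in 8.

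*Hhip* was the clearest mark of the iSMC across all clusters. Its mean level was 1430 on plate colon_513s and 1036 on plate colon_682s, against 2.43 and 2.29 in vascular SMC of the same plates. In pericytes it ranged from 0.703 to 7.51 over 3 plates, and in fibroblast clusters 1, 5 and 7 of the Acta2GFP plates from 12.6 to 129. The highest level in any other cluster and plate with at least 10 cells was 129, in cluster 5 of plate colon_513s, so plate means of no other class overlapped with those of iSMC. Single cells did overlap: a level of 100 or more was found in 82 cells of cluster 5 (19.3%), 40 of cluster 1 (8.28%) and 15 of cluster 7 (6.73%), while the lowest iSMC was at 152. A count of *Hhip* was nevertheless found in 66.9% of fibroblasts of clusters 1, 5 and 7 and 58.6% of vascular SMC of the Acta2GFP plates, and in 40.4% and 24.1% after each cell was thinned to 50000 counts, so neither a single count nor a level of 100 marks the class by itself.

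The other markers were also high in at least 1 other class. *Agt* was at 565 and 519 in iSMC and at 2.68 and 1.57 in vascular SMC, but it ranged from 611 to 972 over 5 plates in fibroblasts of cluster 2. *Rgs10* was at 521 and 302.5 in iSMC, at 3.34 and 4.51 in vascular SMC, and at 230 to 402 in cluster 2, whose plates overlapped with iSMC. *Postn*, a matrix protein called periostin, was at 2493 and 2276 in iSMC and at 14.8 and 130 in vascular SMC, with 1944 and 2004 in cluster 1. *Acta2* was at 5642 and 3355 in iSMC and at 6395 and 3167 in vascular SMC, so these classes overlapped.

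**Figure D2:**
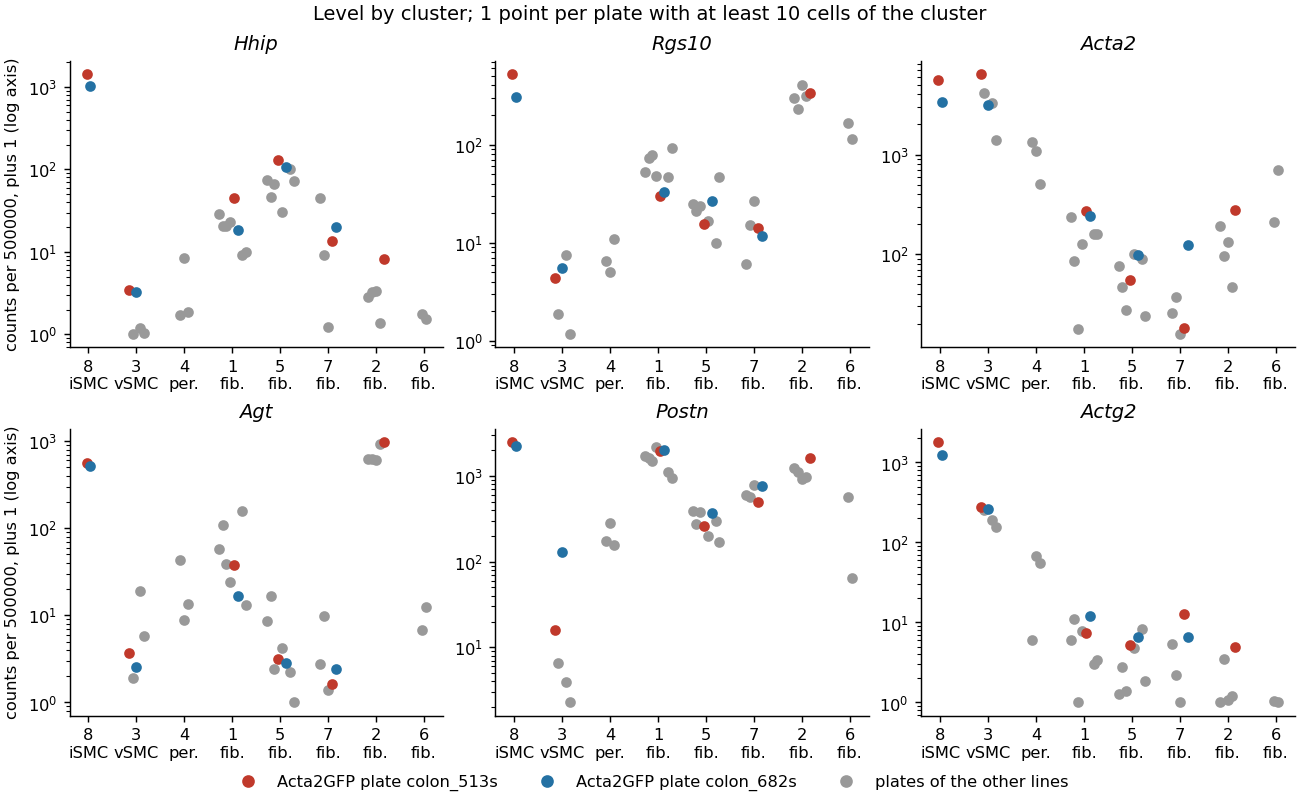
Mean level of 6 genes by cluster (counts per 500000, 1 added, log axis); 1 point per plate with at least 10 cells of the cluster, coloured for the 2 Acta2GFP plates. iSMC stood alone for *Hhip* and *Actg2*, beside vascular SMC for *Acta2*, beside cluster 2 for *Agt* and *Rgs10*, and beside cluster 1 for *Postn*.

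A ranking asked which genes, beyond the label markers, set iSMC apart from every other cluster. Among 216 genes with at least 100 counts in at least 30% of iSMC, the lower of both Acta2GFP plate levels was divided by the highest level elsewhere, 1 added to each, and 19 genes had a ratio above 1. The ranking is a description without a test. *Hhip* came first with a ratio of 7.96, and *Actg2*, the gamma actin of visceral smooth muscle, was second at 4.45, where reads that fit several of the near-identical actins leave its count uncertain. *Actg2* was at 1794 and 1244 in iSMC, 279 and 262 in vascular SMC, and at most 11.8 in the fibroblast clusters tested. *Cpxm2*, a carboxypeptidase-like secreted protein, followed at 2.08 with 604 and 550 in iSMC and at most 264 elsewhere.

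Further genes of the ranking lay closer to their highest level elsewhere. *Tgfb1i1* (Hic-5, an adhesion adaptor) had a ratio of 1.93, *Cnn1* (calponin, an actin-binding protein) of 1.77 and *Myocd* (myocardin) of 1.57. *Cnn1* was at 1030 and 834 in iSMC and at 471 and 411 in vascular SMC, and *Myocd* was at 508 and 484 against 236.5 and 276. *Entpd1*, the ATP-degrading enzyme CD39, had a ratio of 1.92, with 544 and 675 in iSMC. *Clic4* was just inside a ratio of 1 at 1.01 and *Csrp1* just outside at 0.994.

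**Figure D3:**
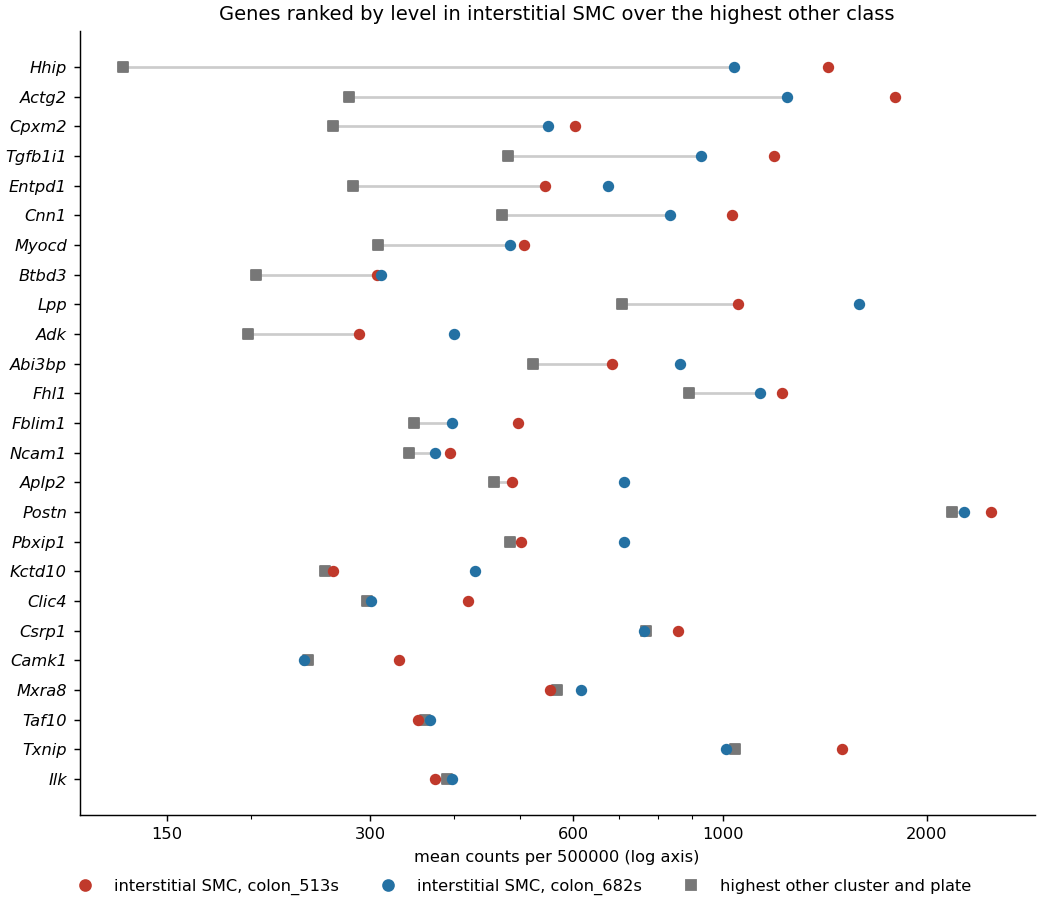
The 25 genes ranked highest by the ratio of the lower iSMC plate level to the highest level in any other cluster and plate; mean counts per 500000 on a log axis, circles for iSMC, squares for the highest other value. *Hhip* and *Actg2* lie furthest from their squares, and from *Csrp1* down at least 1 circle lies at or below its square.

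The same ranking in reverse named genes that were lower in iSMC than in each of clusters 1, 3, 4, 5 and 7. *Gpc6*, a glypican of the cell surface, was at 3.49 and 8.33 in iSMC, and its lowest level elsewhere was 44.9. *Fxyd5*, a regulator of the sodium pump, was at 6.50 and 6.72 with a lowest level of 34.4 elsewhere. *Lpl* (lipoprotein lipase) was at 2.04 and 10.9 with a lowest level of 36. In all, 11 genes had a ratio of at least 2.

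Against vascular SMC of the same 2 plates, the question was how far 2 smooth muscle classes differ. Of 14940 genes tested, 249 (1.67%) were higher and 115 (0.77%) lower in iSMC (edgeR quasi-likelihood test, Benjamini-Hochberg adjusted p under 0.05), with a median log2 fold change over all genes of 0.12. An unadjusted p under 0.05 was found for 2850 of the 14940 genes, both directions together, which is the background for such counts below. DESeq2 called 1268 higher and 961 lower. The counts depended on single sums: they were 151 and 75 without the vascular SMC of colon_513s, 729 and 212 without those of colon_682s, and 148 and 65 without the iSMC of colon_682s. The median fold change also moved to 0.74 without the vascular SMC of colon_682s. That class rests on 11 and 18 cells, with 1243392 and 6459153 summed counts, and the iSMC on 4855388 and 2531867. With plate as a block, of the genes named as higher or lower below, *Amigo2*, *Casq2*, *Col3a1*, *Col6a3*, *Enpep*, *Hgf*, *Hoxa13*, *Lama2*, *Mfap5*, *Nid2* and *P2ry6* lost their call (adjusted p from 0.0525 to 0.0671 with edgeR). The 3 comparisons share the iSMC sums. Counts within the gene lists were small and rested on single sums in the same way: with at least 1 sum left out, 19 of 25 list counts against vascular SMC, 21 of 29 against fibroblasts and 16 of 23 against pericytes moved by more than 1.5 times.

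Among called genes with at least 100 counts in at least 30% of iSMC and the same direction on both plates, the largest rises were those of *Hhip*, with a log2 fold change of 9.07 ± 0.855 (SE; adjusted p = 0.00129), *Agt* and *Rgs10*. *Agt* was higher by 8.20 ± 0.648 and *Rgs10* by 7.02 ± 0.642 (both adjusted p = 0.00129 with edgeR). *F2r*, the thrombin receptor PAR1, was at 1278 and 761 in iSMC against 20.1 and 26.0, a log2 fold change of 5.97. *Postn* (5.89), *Lamb1* (a laminin chain, 5.25), *Ncam1* (a neural cell adhesion molecule, 5.10), *Bmp4* (4.89), *Plac8* (4.85) and *Cd44* (the hyaluronan receptor, 4.70) completed the 10 genes of this rule. All 10 kept their call with any 1 of the 4 sums left out.

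Several genes of vascular mural cells were lower. *Notch3* was at 0.118 and 0.599 in iSMC and at 378 and 228 in vascular SMC, a log2 fold change of -9.07 ± 1.28 (adjusted p = 0.00681 with edgeR). *P2rx1*, the ATP-gated channel of arterial muscle, was at 0.0866 and 1.45 against 359 and 421 (log2 fold change -9.03), and *Heyl*, a Notch target, at 0.191 and 1.59 against 410 and 107 (-8.49). *Fgf1* was at 0.289 and 2.66 against 143 and 179.5, and *Sncg* at 0.431 and 2.35 against 338 and 247. *Susd5*, with 2 counts in the iSMC of both plates and levels of 225 and 127 in vascular SMC, *Cystm1*, *Olfr558*, *Tesc* and *Amigo2* completed the 10 genes that fell most by the same rule, applied to vascular SMC. On a list of 30 vascular mural and pericyte genes, 9 of 29 tested were lower, and the median log2 fold change was -2.39. *Pdgfrb*, the receptor that guides mural cells to vessels, was among them, at 86.5 and 117 against 434 and 278 (-1.87). DESeq2 called 17 of the list lower and limma 16. By edgeR 0 were higher, with 2 at an unadjusted p under 0.05, 1 by DESeq2 and 0 by limma. Without the vascular SMC of colon_513s or the iSMC of colon_513s, 4 were lower.

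Contractile genes were high in both smooth muscle classes. Of 28 contractile and cytoskeletal genes, 1 was higher in iSMC (*Actg2*, log2 fold change 2.73 ± 0.482, adjusted p = 0.0181 with edgeR), and the median was 0.01. In the other direction edgeR called 0, with 2 at an unadjusted p under 0.05, and DESeq2 and limma called 2 each. The call of *Actg2* was lost without the vascular SMC of colon_513s and without the iSMC of colon_513s. *Acta2* differed by 0.08 ± 0.605 on the log2 scale (adjusted p = 0.981), and *Myh11*, the smooth muscle myosin, was at 1776 and 2274 in iSMC and 2263 and 1616 in vascular SMC. *Des* (desmin, the muscle intermediate filament) was at 237 and 79.1 against 1203 and 985, a log2 fold change of -2.83 ± 0.704 that did not pass (adjusted p = 0.0636) but did with plate as a block and in 1 of the 4 fits without 1 sum. The summed level of the list was 26730 and 23150 in iSMC and 30150 and 19950 in vascular SMC.

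Some genes of the signalling pathways of the mucosa were higher in iSMC than in vascular SMC. Of 17 hedgehog pathway genes tested, 4 were higher (among them *Hhip*, *Gli3* and *Ptch1*), with a median of 2.49. *Ptch1* was at 324 and 262.5 in iSMC against 25.8 and 26.2 (log2 fold change 4.21), and the transcription factor *Gli3* at 28.8 and 28.4 against 0 and 1.25. *Gli1*, another target, was at 22.3 and 50.2 against 14.3 and 4.99, which did not pass. All 4 calls held in each of the 4 fits without 1 sum, and 8 genes were called without the vascular SMC of colon_682s.

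Of 34 BMP and TGF-beta genes, 3 were higher and 1 lower (median 0.55). The ligand *Bmp4* was at 367 and 447 in iSMC against 5.41 and 38.4, *Ltbp4* (a TGF-beta binding protein) at 581 and 888 against 8.62 and 94.6, and *Fstl1* at 968 and 909 against 268 and 268. *Tgfb2* was the lower one, at 4.62 and 6.40 against 57.2 and 74.4. Of 25 WNT and R-spondin genes, 4 were higher (median 1.84): the ligand *Wnt5a*, the secreted modulators *Dkk3* and *Sfrp1*, and the receptor *Fzd1*. *Dkk3* was at 546 and 359 against 3.88 and 29.1, and *Sfrp1* at 114 and 119 against 9.83 and 20.4.

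Among 19 vascular and lymphatic growth factors, *Igf1* was at 328 and 323 in iSMC against 0 and 4.72 (log2 fold change 7.56 ± 0.951, adjusted p = 0.0045 with edgeR), and *Hgf* was higher too, while *Pgf* was lower, at 0.283 and 4.87 against 75.5 and 137 (median of the list 1.25). Of 36 transcription factors of smooth muscle and gut mesenchyme, 2 were higher (*Tcf21* and *Hoxa13*) and 3 lower (*Heyl*, *Klf2* and *Mef2c*), with a median of -0.17. *Tcf21* was at 309.5 and 263 against 9.10 and 41.4, and *Klf2* at 6.28 and 8.94 against 254 and 192. *Hoxa13* was at 30.1 and 8.55 in iSMC and had 2 counts in all vascular SMC of both plates.

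The iSMC also differed from vascular SMC in matrix genes. Of 20 genes of basement membranes, *Nid1*, *Nid2*, *Lamb1* and *Lama2* were higher and *Lamb2* was lower (median 0.37). *Nid1* was at 258 and 254.5 against 49.7 and 46.3, and *Lamb1* at 377 and 377.5 against 7.38 and 23. Of 26 integrins and ligands, *Itgb3*, *Postn*, *Itga9* and *Itga11* were higher and *Thbs1* lower (median 0.32). Of 20 fibroblast genes, 5 were higher (*Col3a1*, *Mfap5*, *Loxl1*, *Col6a3* and *Col1a2*; median 1.57). The count was 10 without the vascular SMC of colon_682s, 1 and 2 without the iSMC of colon_513s and colon_682s, and 2 with plate as a block. *Col3a1* was at 1625 and 1195 against 31.8 and 267 (adjusted p = 0.0318 with edgeR, 0.0645 with the block, at most 0.0673 over 9 alternatives). The summed level of the fibroblast list was higher on colon_682s than on colon_513s in both classes, at 7109 against 5455 in iSMC and 4089 against 1473 in vascular SMC, and its part in these calls was not tested.

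**Figure D4:**
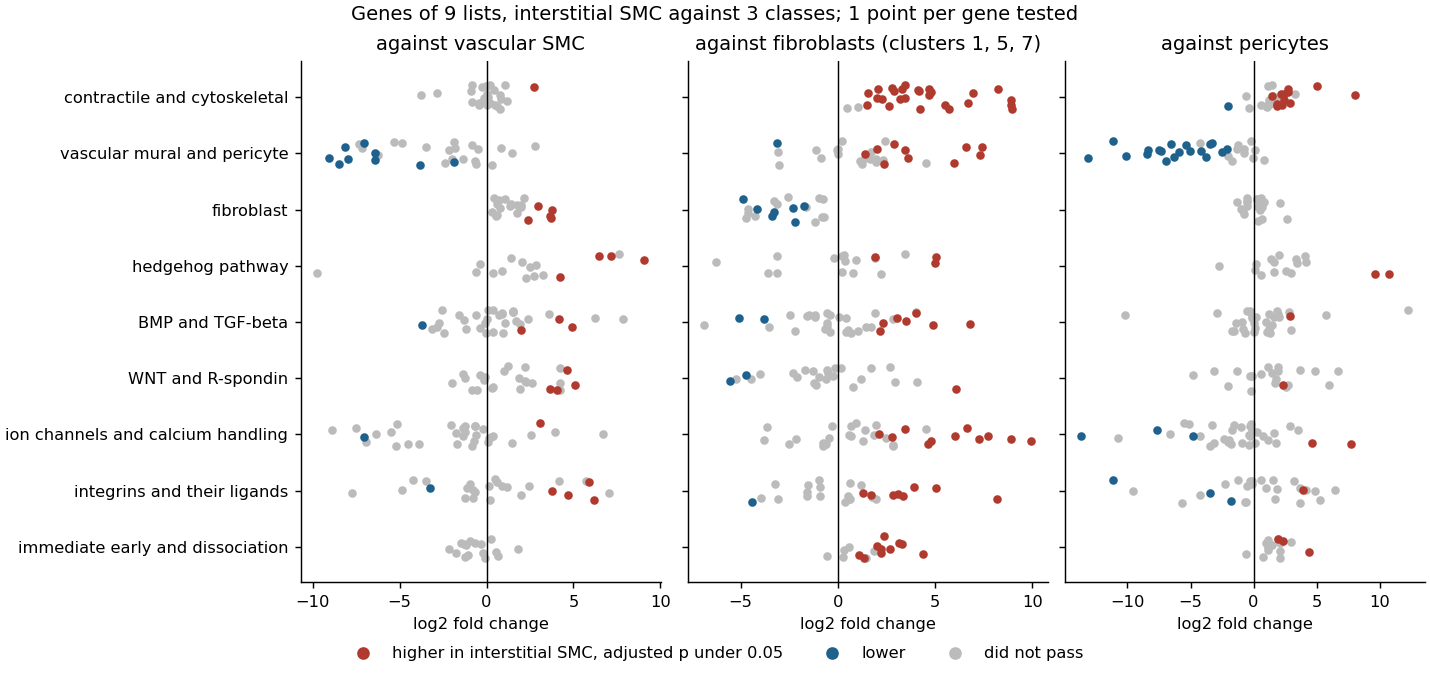
Log2 fold changes of iSMC against vascular SMC, fibroblasts and pericytes for the tested genes of 9 lists; 1 point per gene, red where higher and blue where lower at an adjusted p under 0.05, with genes of 0 to 3 counts in a class drawn at their fitted value, which is no bound. Contractile genes centre on 0 against vascular SMC (median 0.01) and lie to the right against fibroblasts (median 3.79), and vascular mural genes lie to the left against pericytes (median -3.99).

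Against fibroblasts, the mean of clusters 1, 5 and 7 on the same plates, 477 genes (3.19%) were higher and 216 (1.45%) lower in iSMC of 14940 tested, with a median of -0.10. An unadjusted p under 0.05 was found for 2968 of them in both directions together. DESeq2 called 1013 higher and 1234 lower, and limma 447 and 607. In what follows, a difference from fibroblasts is one from these 3 clusters. With plate as a block, *Agtr1b*, *Col14a1*, *Fndc1*, *Gfra2*, *Postn*, *Ptch1*, *Rgs11*, *Sfrp4* and *Srf* lost their call (adjusted p from 0.0529 to 0.185 with edgeR). Higher counts fell to between 248 and 317 without any 1 of the 6 fibroblast sums or without the iSMC of colon_682s, and lower counts to between 76 and 111 without any 1 of the fibroblast sums. By the same rule as above, the 10 leading genes were *Cnn1* (log2 fold change 8.95 ± 0.442, adjusted p = 2.79e-06 with edgeR), *Casq2* (calsequestrin, a calcium store protein), *Myh11*, *Lmod1*, *Actg2*, *Cpxm2*, *Agt*, *Tinagl1*, *Myocd* and *Mylk*. *Mylk*, the kinase that sets myosin in motion, was at 886 and 1170 in iSMC and at 2.10 to 29.1 in the fibroblast sums. Of the 28 contractile genes 26 were higher and the median was 3.79, with between 21 and 25 higher when 1 sum was left out. *Vcl*, whose upstream window is printed above, was at 830 and 386 against 74.1 to 109 (log2 fold change 2.81 ± 0.369, adjusted p = 0.00163).

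Among label markers, *Hhip* was higher than in fibroblasts by 5.02 ± 0.447 (adjusted p = 0.000117 with edgeR), *Agt* by 7.50 and *Rgs10* by 4.54. *Postn* was higher by 1.70 ± 0.419 (adjusted p = 0.0458), a call that was lost in every fit without 1 sum and with plate as a block (0.054, from 1.42e-10 to 0.537 over 13 alternatives). With the rule applied to fibroblast cells, the lower genes included *Lepr* (leptin receptor), *Col14a1*, *Medag*, *Cygb*, *Pid1*, *Fndc1*, *Adh1*, *Gfpt2* and *Igfbp4*. *Lepr* was at 1.68 and 15.4 against 128 to 331. Of 20 fibroblast genes 7 were lower (median -2.84), among them *Pdgfra*, at 13.4 and 25.8 against 175 to 347.5 (log2 fold change -4.18 ± 0.563, adjusted p = 0.0019). *Cd34*, at 6.06 and 111 against 612 to 1906, did not pass. DESeq2 and limma each called 14 of the list lower. The count of 7 fell to 4 without cluster 1 or 5 of either plate or cluster 7 of colon_513s and to 3 without the iSMC of colon_513s.

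The signalling lists were also compared with fibroblasts. Of 17 hedgehog genes, 3 were higher than in fibroblasts (*Foxl1*, *Hhip* and *Ptch1*; median 0.38; 1 without cluster 1 of either plate, cluster 5 of colon_682s or the iSMC of colon_513s), of 25 WNT genes 1 (*Nkd1*) was higher and 2 (*Wnt2* and *Sfrp4*) lower (median -0.63), and of 34 BMP and TGF-beta genes 7 were higher and 2 lower (median 0.26). *Foxl1*, a transcription factor of the mesenchyme next to the epithelium, was at 75.2 and 20.6 in iSMC, at most 11.2 in these fibroblast sums, and from 52.5 to 183 in cluster 2. *Bmp5* was at 170 and 160 with a log2 fold change of 4.03 ± 0.496 (adjusted p = 0.00108 with edgeR), but it was at 149 and 176 in cluster 1, at most 5.25 in clusters 5 and 7, and from 579 to 797 in cluster 2. With all fibroblast clusters pooled, cluster 2 included, 103 of the 135 calls named against fibroblasts were lost, among them *Bmp5* (adjusted p = 0.944), *Foxl1* (0.864), *Agt* (0.383) and *Rgs10* (0.0998), and, described further on, *Ednrb* (0.854), *Nrg1* (0.99) and *Sema3f* (0.967). That fit held fewer sums than the main fit, and over all genes it called 60 higher and 6 lower. *Pdgfra*, at a level of 100 or more in 96.95% of cluster 2, lost its call as well. What part cluster 2 and the smaller fit had in these losses was not tested. *Bmp4* differed by 0.44 ± 0.423 and did not pass.

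In the same comparison 10 of 29 vascular mural genes were higher and *Ebf1* was lower (median 1.71), including the endothelin receptors *Ednra* and *Ednrb* and the adhesion molecule *Mcam*, at 165 and 125 against at most 2.27. The count of 10 fell to 6 without cluster 1 of colon_513s, and the call of *Ednrb*, which was at 267 to 413 in cluster 2, was lost with all fibroblast clusters pooled. Of 36 transcription factors, 7 were higher (*Myocd*, *Tbx3*, *Tbx2*, *Srf*, *Nr4a1*, *Mef2c* and *Nkx2-3*) and *Klf2* lower (median 0.74). Of 26 integrins and ligands, 8 were higher and *Thbs2* lower (median 0.62). *Itga8*, an integrin of contractile cells, was at 108 and 64.4 in iSMC and at most 0.932 in the fibroblast sums. Of 20 basement membrane genes 2 were higher and 3 lower (median -0.69). Of 19 growth factors, 5 were higher, led by *Pdgfc* at 126.5 and 93.5 against at most 4.23, and 2 lower (median 0.76).

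Fewer than 10 pericytes came from each Acta2GFP plate, so they were taken from plates of the other lines, and line and class cannot be told apart in this comparison. Of 14554 genes, 98 (0.673%) were higher and 143 (0.983%) lower in iSMC, with a median of -0.23. An unadjusted p under 0.05 was found for 1812 of the 14554 in both directions together. With plate as a block, linked through vascular SMC, 12 were higher and 34 lower. Higher counts fell to 51 and 49 without the pericytes of colon_685s or colon_686s, and to 39 and 45 without the iSMC of colon_513s or colon_682s, and lower counts to 88 without the iSMC of colon_513s. *Notch3*, at 434 to 900 in pericytes, had a log2 fold change of -10.11 ± 0.876 (adjusted p = 6.36e-05 with edgeR) and passed under every alternative. *Cnn1* was higher by 8.04 ± 0.647 (adjusted p = 6.32e-05, at most 0.0106 over 9 alternatives).

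*Hhip* was higher than in pericytes by 9.63 ± 1.68 (adjusted p = 0.00793 with edgeR; 0.0747 with the block, from 8.63e-11 to 0.0747 over 8 alternatives). *Rgs10* (5.82), *Actg2* (5.01), *Agt* (4.58) and *Acta2* (2.27) passed without the block, and of these only *Acta2* passed with it. *Acta2* lost its call in 4 of the 5 fits without 1 sum, all but the fit without the pericytes of colon_516s (adjusted p up to 0.234 with edgeR). Of the 5 label markers, 4 were called, but 1 without the pericytes of colon_685s or the iSMC of colon_513s, and 2 without any 1 of the other 3 sums. *Postn* did not pass (3.68 ± 1.13, adjusted p = 0.148). *Entpd1* was at 10.1 to 23.1 in pericytes and differed by 5.51 ± 0.577 (adjusted p = 0.000225, at most 0.00681 over 9 alternatives). *Cpxm2*, *Ncam1*, *Casq2* and *Podn* completed the higher genes, of which *Ncam1* and *Podn* lost their call with the block (adjusted p = 0.225 and 0.312 with edgeR). Of the contractile list, 12 of 28 were higher and *Des* lower (median 1.70), with 3 higher under the block. The count of 12 fell to 6 and 5 without the pericytes of colon_685s and colon_686s, and to 5 and 7 without the iSMC of colon_513s and colon_682s.

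Of 30 vascular mural and pericyte genes, 19 were lower than in pericytes and the median was -3.99, with 9 lower under the block. By edgeR 0 were higher, with 1 at an unadjusted p under 0.05 and 0 by DESeq2 and limma. *Cox4i2* and *Ndufa4l2*, mitochondrial proteins typical of pericytes, were at 3.22 and 0.593 and at 0.258 and 2.73 in iSMC, and at 267 to 343 and 358 to 474 in pericytes. *Rgs5* was at 126 and 134 against 3089 to 3398 (log2 fold change -4.18 ± 0.44, adjusted p = 0.000225 with edgeR). *Vtn* (vitronectin) had 3 counts in the iSMC of both Acta2GFP plates and was at 358 to 613 in pericytes. *Gja4*, *Olfr558*, *Cspg4*, *Inpp4b*, *Ebf1* and *Il34* were further genes that were lower. *Cspg4* and *Vtn* lost their call with the block (adjusted p = 0.0826 and 0.1 with edgeR).

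The signalling, transcription factor and matrix lists had few calls against pericytes, and of their genes named here only *Pdgfc* kept its call with plate as a block (adjusted p = 0.0428). Hedgehog genes were higher in 2 of 16 (*Foxl1* and *Hhip*; median 2.27), BMP and TGF-beta genes in 1 of 32 (*Ltbp1*; median 0.60), WNT genes in 1 of 21 (*Nkd1*; median 1.73) and growth factors in 2 of 22 (*Pdgfc* and *Igf1*; median -0.21), where *Nrp1* and *Pgf* were lower. Of 34 transcription factors, *Heyl* was lower (median 0.47). Of 20 basement membrane genes *Lamc3* and *Lamb2* were lower (median -0.79), and of 27 integrins and ligands *Itga8* was higher and *Vtn*, *Itga7* and *Igfbp7* lower (median -0.13). Of 20 fibroblast genes, 0 passed in either direction by edgeR, DESeq2 or limma, and 0 had an unadjusted p under 0.05 (median 0.31).

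Genes through which muscle receives signals were then examined. Of 37 genes on a list of receptors for transmitters and hormones, *Bdkrb2* and *Ptger1* were higher than in vascular SMC and *P2rx1*, *P2ry6*, *Ptgir* and *Vipr2* lower (median -0.99). The bradykinin receptor *Bdkrb2* was at 162 and 45.8 in iSMC and had 2 counts in vascular SMC of both plates. *Vipr2*, a receptor for the gut neuropeptide VIP, was at 1.63 and 6.91 against 121 and 69.2 (log2 fold change -5.13 ± 0.63, adjusted p = 0.0045 with edgeR). *Ptgir*, the prostacyclin receptor, had 3 counts in the iSMC of both plates. The muscarinic receptors *Chrm2* and *Chrm3*, through which acetylcholine contracts gut muscle, had no count in the iSMC of either plate. Against fibroblasts 4 genes of the list were higher (*Bdkrb2*, *Ptger2*, *P2ry14* and *Mrvi1*, the last a partner of a calcium release channel and no receptor for a transmitter) and 3 lower (median -0.24), and against pericytes *Adra2a* and *Ptgir* of 39 were lower (median -0.86). *Adra2a* lost this call with plate as a block (adjusted p = 0.443 with edgeR) and *Ptgir* kept it (0.033).

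Of 10 renin-angiotensin genes, *Agt* was higher and *Enpep* lower than in vascular SMC (median 0.15), and *Agt* and *Agtr1b* were higher than in fibroblasts (median -2.11). *Agt* was higher and *Enpep* lower among 11 against pericytes (median -4.00), where the call of *Agt* was lost without any 1 of the 5 sums and with the block, DESeq2 gave it no adjusted p, and that of *Enpep* was lost with the block. *Agtr1a*, the main angiotensin receptor of vessels, was at 0 and 3.85 in iSMC and 122 to 160 in pericytes. *Agtr1b* was at 44.9 and 1.81, so its level rested on plate colon_513s.

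In the RGS family, *Rgs10* was higher than in vascular SMC (1 of 13, median 1.79), *Rgs11*, *Rgs2*, *Rgs10* and *Rgs5* than in fibroblasts (median 2.38), and *Rgs10* and *Rgs2* than in pericytes, where *Rgs7bp*, *Rgs4* and *Rgs5* were lower (median 0.01). Of the calls against pericytes, only that of *Rgs5* was kept with plate as a block (adjusted p = 0.0126 with edgeR). *Rgs4* was at 0.662 and 20.1 in iSMC and 858 and 1117 in vascular SMC, which did not pass. *Rgs11* was at 21.4 and 0.0959, so it rested on colon_513s.

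Of 32 ion channel and calcium handling genes, *Casq2* was higher than in vascular SMC, at 509 and 210 against 42.5 and 64.2, and *Pln* (phospholamban, a brake on the calcium pump) lower, at 0.79 and 8.40 against 729 and 679 (median -1.25). The call of *Casq2* (adjusted p = 0.0458 with edgeR) was lost with the block (0.0604, from 0.000312 to 0.435 over 9 alternatives). Against fibroblasts 11 were higher (median 1.91), among them the BK channel subunit *Kcnmb1* at 107 and 130.5 against at most 3.12. Against pericytes 2 of 35 were higher and 3 lower (median -1.01), with 1 higher and 1 lower under the block. Genes of nitric oxide and cyclic nucleotide signalling had 0 calls of 15 against vascular SMC by edgeR (median -0.54), with 3 higher and 5 lower at an unadjusted p under 0.05. DESeq2 called 3 higher and 4 lower, and limma 1 and 3. Against fibroblasts 4 were higher (median 2.22), such as *Gucy1a1* and *Pde5a*, and against pericytes 3 of 16 were lower (median -1.37), with 0 lower under the block.

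Of 25 neurotrophic and axon guidance genes, *Robo2* was higher than in vascular SMC, at 66.0 and 47.4 against 0.365 and 2.60, and 2 genes, among them *Slit3*, were lower (median 0.77). Against fibroblasts *Nrg1*, *Sema3a*, *Sema3f* and *Ntf3* were higher and *Gfra2* and *Slit3* lower (median 0.60), but none of these 4 higher calls held in every fit without 1 sum, and all 4 were lost with all fibroblast clusters pooled. Against pericytes *Kitl* of 24 was lower (median -0.26), a call that was lost with plate as a block (adjusted p = 0.105 with edgeR). *Sema3a*, a repellent of growing axons, was at 69.9 and 133 in iSMC and at most 6.35 in the fibroblast sums.

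Markers of other cell types were low in iSMC. Low endothelial and immune levels were partly set beforehand, since the authors had removed CD31-positive cells and cells with endothelial or immune signatures. The summed level of 12 endothelial genes was 262 and 210, against 578 and 400 in vascular SMC, and it came mostly from *Esam*, which mural cells also express. *Esam* was the 1 of 8 endothelial genes that was higher than in fibroblasts (median 0.89), with 0 called against vascular SMC (median 0.23) and 0 of 12 against pericytes (median -1.76), where 6 were lower at an unadjusted p under 0.05, 2 by DESeq2 and 3 by limma. The summed level of 10 immune genes was 2.43 and 4.63, of 12 epithelial genes 17.4 and 10.6 and of 14 glial and neuronal genes 9.95 and 1.04. Against vascular SMC and against fibroblasts 4, 5 and 5 of these were tested, and 6, 8 and 4 against pericytes. By edgeR 0 of those tested were called in any of the 3 comparisons. At an unadjusted p under 0.05 there were at most 1 in any list and direction, and DESeq2 and limma called at most 1. Of the list for interstitial cells of Cajal, *Kcnk3*, *Cacna1h* and *Ano1* were higher than in fibroblasts (median 4.63). Against vascular SMC (median -0.82) edgeR called 0 of 5, with 1 lower at an unadjusted p under 0.05, by DESeq2 and by limma, and against pericytes (median -0.26) 0, with 1 higher and 2 lower by each of these. *Ano1*, a chloride channel, was at 29.3 and 3.79 in iSMC, at most 2.00 in the fibroblast sums and at 245 and 282 in vascular SMC. With all fibroblast clusters pooled its log2 fold change turned from 4.63 to -0.27.

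Immediate early and dissociation genes had higher summed levels in the smooth muscle classes than in fibroblast clusters 1, 5 and 7 of the same plate. The difference was small for iSMC and cluster 5 on colon_682s. Their summed level was 10520 and 6783 in iSMC, 16360 and 13070 in vascular SMC, and 1053 to 3164 on colon_513s and 2503 to 6734 on colon_682s in fibroblast clusters 1, 5 and 7. Against vascular SMC 0 of 16 were called by edgeR (median -0.81), with 1 higher and 4 lower at an unadjusted p under 0.05, 1 lower by DESeq2 and 0 by limma. Of the list, 10 were higher than in fibroblasts (median 1.94) and 3 (*Fosb*, *Fos* and *Jun*) than in pericytes (median 1.70). Against pericytes only *Fosb* kept its call with plate as a block (adjusted p = 0.0437 with edgeR). The part of the listed genes in the differences from fibroblasts was not tested. *Fos* was at 3119 and 1287 in iSMC and at 192.5 to 1102 in the fibroblast sums. Over all plates it reached 100 in 91.6% of cluster 2, against 83.9% of iSMC and 93.6% of vascular SMC. The calls of *Fosb*, *Atf3*, *Nr4a1*, *Hspa1b*, *Btg2*, *Zfp36*, *Fos* and *Jun* against fibroblasts were lost with all fibroblast clusters pooled.

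The RNA content of a cell can be read against the ERCC spike-ins added to each well, a measure that is no gene of the clustering. The median ratio of gene counts to spike-in counts in iSMC was 46.2 on colon_513s and 55.6 on colon_682s. It was 40.9 and 80.8 in vascular SMC and 51.3 and 83.2 in cluster 1, so iSMC were the lowest of the classes with at least 10 cells on colon_682s but not on colon_513s. On single cells the ratio ran from 26.2 to 142.5 and from 26.1 to 109. Median gene counts were 94080 and 205400 and median detected genes 3548 and 5932, and the median mitochondrial share was 1.51% and 1.45%, against 2.66% and 2.10% in vascular SMC.

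**Figure D5:**
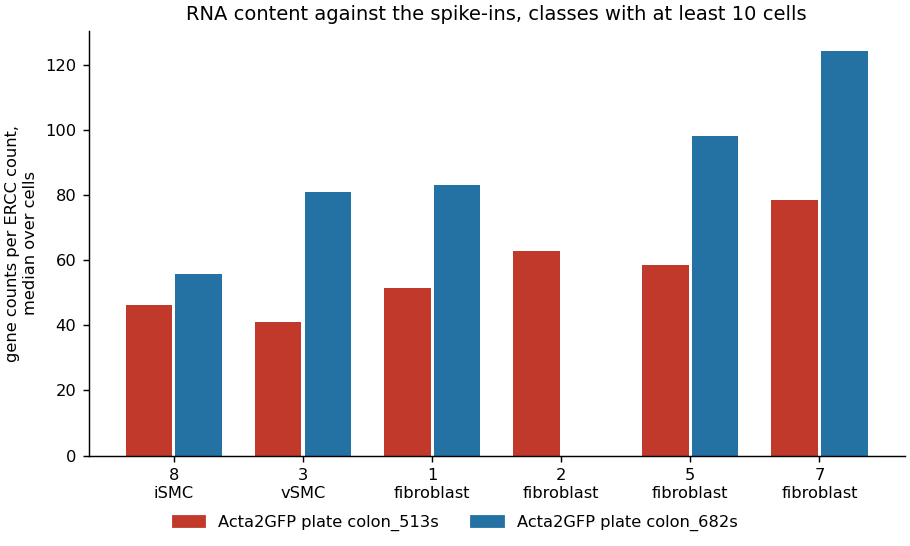
Median over cells of the ratio of gene counts to ERCC spike-in counts, by cluster and Acta2GFP plate; bars start at 0 and cluster 2 has too few cells on colon_682s. iSMC had 46.2 on colon_513s, between the other classes, and 55.6 on colon_682s, below them.

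The iSMC were captured unevenly. They made up 40 of 259 cells of plate colon_513s (15.4%, 95% Clopper-Pearson interval 11.3 to 20.4) and 12 of 308 of plate colon_682s (3.90%, 2.03 to 6.71), and the intervals do not overlap. Among 761 PdgfrbGFP cells there were 4 (0.526%, 0.143 to 1.34). None was found among 227 PdgfraGFP cells, which by the limit of 3 counts allows a share of up to 1.32% (upper Clopper-Pearson bound 1.61%), or among 91 Cspg4dsRED cells, which allows up to 3.30% (upper bound 3.97%). These limits cover counting error only, the sort and the elastase step differed between lines, and shares are of sorted cells and not of the tissue.

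The 4 PdgfrbGFP cells were not used in any test and give a view of the class in a second line. The clustering that put them in the class used these same counts, so they are no independent replicate of it. Their *Hhip* levels were 2332, 1192, 423 and 1383, and the other cells of their plates averaged 8.17 to 27.9. Their *Actg2* levels were 2101, 887, 1185 and 918, against averages of 5.51 to 78.4. *Agt* varied more, at 71.5, 0, 17.4 and 852, and *Notch3* had no count in any of the 4. All 4 lay within the range of the Acta2GFP iSMC for *Hhip* and *Actg2*, but *Acta2* was at 5871, 1163, 3287 and 1875, below the Acta2GFP minimum of 1968 in 2 of them.

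Likeness to other classes was described by Pearson's r of log2 levels across 14940 genes, which share plate and depth and are not independent. On colon_513s, iSMC had r = 0.728 with cluster 1, 0.735 with cluster 2 and 0.602 with vascular SMC, and on colon_682s 0.705 with cluster 1 and 0.641 with vascular SMC. With 11 cells a class, each thinned to 50000 counts (a version chosen after seeing the data), r was 0.640 with cluster 1, 0.647 with cluster 2 and 0.591 with vascular SMC on colon_513s, and 0.648 and 0.638 with clusters 1 and 3 on colon_682s. Clusters 5 and 7 had 0.586 and 0.599 on colon_513s and 0.639 and 0.643 on colon_682s in these samples. The iSMC of both plates had r = 0.711 with each other with all cells, below the values with clusters 1 and 2 on colon_513s, and 0.680 in the equal samples.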

How the data were processed

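Full-length SmartSeq2 libraries of 1646 single colon cells were analysed. According to the study's methods, the authors mapped 50-base reads to GRCm38 with TopHat2 and Bowtie, counted reads per gene with featureCounts and left out low quality cells, and they deposited raw counts per gene and cell. Whether counting used strand is not stated, which leaves antisense and overlapping genes uncertain, along with near-identical copies such as the actins. The 92 ERCC rows (1.36% of counts) were kept out of library sizes and tests. Libraries carried no molecular identifiers, so intervals on shares of reads or cells cover counting error only. Doublets were not called again: cells with 10000 or more genes had been removed by the authors before deposit. No columns were left unused. Of 46517 gene identifiers, 46005 had a symbol in GENCODE vM21.

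A level is the mean over cells of counts per 500000. For tests, the counts of all cells of 1 cluster on 1 plate (at least 10 cells) were added up, filtered with filterByExpr, scaled with TMM and tested with edgeR 4.0.16 (quasi-likelihood, R 4.3.3), with p adjusted by Benjamini-Hochberg over all genes tested. The standard error was derived from the log2 fold change and its quasi-likelihood F (their ratio after taking the root of F). iSMC, vascular SMC and clusters 1, 5 and 7 of the Acta2GFP plates were fitted together (10 sums), and iSMC, vascular SMC and pericytes in a second fit (10 sums). Alternatives were DESeq2 1.42.0, no filter, plate as a replicate block, limma 3.58.1 on log2 of mean levels with 1 added, each sum left out, vascular SMC of all lines, all fibroblast clusters pooled, and medians or thinned cells for levels. The script was tested on simulated data.

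Classes on 1 plate share that plate, which is a batch given by the labels. Deviations from the class means correlated weakly, with r of 0.0406 to 0.0932 between iSMC and the other Acta2GFP classes and 0.0992 to 0.118 between vascular SMC and pericytes.

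The 23 gene lists were label markers, contractile, vascular mural, fibroblast, hedgehog, BMP and TGF-beta, WNT, transcription factors, renin-angiotensin, receptors, ion channels, nitric oxide, RGS, basement membrane, integrins, growth factors, neurotrophic, endothelial, immune, epithelial, glial, interstitial cells of Cajal and immediate early genes. Members and lists were chosen with earlier results of these data known. Named genes were the label markers, the 25 genes ranked highest against all other clusters, 10 ranked lowest against clusters 1, 3, 4, 5 and 7, the 10 called genes with the largest fold change in each direction (log2 fold change of at least 2, at least 100 counts in 30% of cells of the higher class, same direction on both plates), and list members. Genes at zero or with up to 3 counts in a class are given as levels or counts without a fold change. A few genes that meet this rule are not reported here.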

Additional observations from a re-analysis of the deposited data

Results flagged for a closer look

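The 4 iSMC of the PdgfrbGFP line lie outside the tests. Their mean *Hhip* level was 1332, against 21.92 over the 506 other cells of their plates, and their mean *Actg2* level was 1273 against 39.88.

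For the 5 label markers and *Actg2*, plates of the other clusters were compared within each cluster, in 30 groups of plates, and Dixon's criterion picks about 1 group in 20 by chance. In 5 cases 1 plate stood apart. *Rgs10* was at 45.91 in cluster 5 on plate colon_686s, with 25.83 next among 8 plates. *Acta2* was at 122.5 in cluster 7 on plate colon_682s, with 36.49 next among 5 plates. *Agt* was at 18.23 in vascular SMC of plate colon_685s, with 4.797 next, and at 8.786 in cluster 7 of plate colon_075s, with 1.739 next. *Postn* was at 130.2 in vascular SMC of plate colon_682s, with 14.78 next among 5 plates. That plate enters the comparison of iSMC with vascular SMC, and *Postn* was called there without it.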

How the results depend on the processing

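Counts of genes called against vascular SMC (249 higher, 115 lower) came to 1268 and 961 with DESeq2, 666 and 476 without the filter and 541 and 485 with limma, and to 251 lower with vascular SMC of all lines. Leaving out 1 sum gave 148 to 729 higher and 65 to 212 lower. Against fibroblasts (477, 216) DESeq2 gave 1013 and 1234, no filter 1012 and 555, limma 607 lower and pooled fibroblasts 60 and 6. Leaving out 1 sum gave 248 to 374 and 76 to 170. Against pericytes (98, 143) DESeq2 gave 391 and 652, no filter 183 and 250 and limma 277 and 346. Leaving out 1 sum gave 39 to 69 and 88 to 118. With plate as a replicate block the counts were 203 and 112, 413 and 171, and 12 and 34.

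Of the named calls, the block removed 16 of 79 against vascular SMC, 18 of 136 against fibroblasts and 56 of 77 against pericytes. Leaving out 1 sum removed 5 to 34, 33 to 52 and 18 to 39. Where a leave-out leaves a class with 1 sum, that sum is assumed to vary like the others. Pooling fibroblasts lost 103 of 135 and turned *Ano1* to -0.27. *Acta2* against vascular SMC, not called, turned from 0.08 to -0.05 with limma, to -0.40 without the vascular SMC of colon_682s and to -0.37 without the iSMC of colon_513s, in a range of -0.40 to 0.80 with 1 sum left out. The cause of these changes was not tested.

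The median fold change of all genes shifted from 0.12 to 0.74 against vascular SMC without that class on colon_682s, and without the iSMC of colon_513s from -0.10 to -0.90 against fibroblasts and from -0.23 to -0.84 against pericytes. The mean iSMC level of *Hhip* over both plates was 1233, with 1251 from medians and 1243 from thinned cells, and the spike-in ratio was 50.9 with medians and 54.6 with means. The equal samples of 11 cells were chosen after seeing the data.

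With 2 plates and 12 iSMC on one of them, low genes rest on few counts, and a gene that did not pass is not shown to be alike between classes.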

Other observations

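The receptor signalling regulator *Rgs5*, at a level of 100 or more in 92.3% of pericytes, 78.7% of vascular SMC and 14.3% of both cluster 1 and iSMC, was uneven among iSMC, an observation chosen after its values were seen. It lay between 261 and 2679 in 8 of the 56 cells and at most at 18.8 in the other 48. Of the 8 cells, 5 came from plate colon_513s, 2 from colon_682s and 1 from the PdgfrbGFP line. Their *Hhip* ran from 222 to 3001, *Notch3* was at most 2.90, *Higd1b* had 0 counts, and they held 2953 to 8044 detected genes.

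Genes that separated the iSMC of plate colon_513s from those of colon_682s, beyond the shift of the other classes between these plates, were low to moderate in level. *Plcg1* was at 60.4 on colon_513s and 0.42 on colon_682s, *Gpr176* at 31.1 and 0, *Ppp1r3b* at 37.2 and 0.53, *Capn15* at 26.9 and 0 and *Aplp1* at 21.9 and 0.29. In the other direction, *Abat* was at 0.39 and 87.3, *Tcp11l1* at 0.47 and 75.4, *Tent5b* at 0.07 and 72.9, *Zfp874b* at 0.07 and 55.7 and *Ctc1* at 0.31 and 53.8. The levels are means of 40 and 12 cells.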
